A study of Mus musculus with 7 samples.

Results

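A set of 10 genes of autophagy and mitophagy were followed in the aortic transcriptome of mice with a mutant collagen III, chosen by name for their roles: Rb1cc1 in initiation, Becn1 and Wipi2 in the nucleation and marking of the membrane, Atg5 and Atg7 in conjugation, Map1lc3b on the autophagosome, Sqstm1 as a cargo receptor, Lamp2 in the lysosomal membrane, and Bnip3 and Bnip3l as receptors of mitochondria. The set was chosen with earlier results of these libraries known. Its genes are 10 of the 55487 gene identifiers in the files, and all 10 passed the filter on low counts that left 15688 genes to test. RNA was taken from thoracic aortas of 7-week-old C57BL/6 male mice, 3 heterozygous knock-in Col3a1+/G182R mice and 4 wild-type mice (WT, 2 normal Col3a1 alleles), with 1 library per mouse. A figure legend of the study names the descending thoracic aorta for these data. The knock-in replaces a glycine of the collagen III triple helix with an arginine at the endogenous locus in every cell that uses the gene. The targeting cassette had been deleted by a recombinase transgene, which had then been bred out. The comparison asks how the aortic transcriptome of the knock-in differs from that of WT.

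Autophagy wraps a part of the cytoplasm in a double membrane, the autophagosome, and delivers it to the lysosome for degradation. A kinase complex starts the process, a lipid kinase complex and WIPI proteins prepare the membrane, a conjugation system attaches LC3 and GABARAP proteins to it, receptors bring the cargo, and the closed vesicle fuses with the lysosome. Mitophagy is the same route taken by mitochondria, either through ubiquitin signals that follow the kinase PINK1 or through receptors such as BNIP3 and NIX (encoded by Bnip3l) that sit in the mitochondrial outer membrane and bind LC3. In the aortic wall, smooth muscle cells and adventitial fibroblasts use autophagy, and these proteins are regulated at the protein level as well, so that transcript levels are not a measure of autophagic flux.

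The study designed RT-qPCR primers for 2 of these genes, and they are shown because they tell which transcripts its PCR reads. With this PCR the study reported higher expression of both genes in Col3a1+/G182R thoracic aortas, in mice other than those sequenced. In the sequenced libraries the genotypes overlapped for Atg7, as given below. Both Atg5 primers lie in exon 8 of 8 (GRCm38, chr10:44363065-44363084 and chr10:44363232-44363251, + strand), in the 3' UTR, and give an amplicon of 187 bases within that exon, found in 1 annotated transcript. Of the Atg7 pair, the forward primer lies in exon 10 (chr6:114697043-114697062, + strand) and the reverse primer crosses the junction of exons 11 and 12, both in the coding part, with an amplicon of 217 bases that 6 annotated Atg7 transcripts hold. No other annotated gene held any of the 4 primers in full.
Atg5 forward: tcctcgctagatggaaccac
Atg5 reverse: agtggtcctgtgtgtctcag
Atg7 forward: ccagtccgttgaagtcctct
Atg7 reverse: agatgactcagccagccttt

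Promoters were read for the letters CACGTG, the core of the site that the lysosomal and autophagic regulators of the TFEB family bind, on both strands of the RefSeq windows of GRCm38.p6, 250 bases before to 50 bases after each start. Of the 10 genes, 7 had a window (Atg5, Atg7, Wipi2, Sqstm1, Map1lc3b, Lamp2 and Bnip3), and 3 of these 7 held the motif, against 7.15% of all 32851 windows. The windows of Atg5, Sqstm1, Map1lc3b, Lamp2 and Bnip3 stood within 77 bases of the 5' end of the gene in GENCODE M21. That of Atg7 was set at an internal RefSeq start, 27999 bases downstream of that end, and that of Wipi2 at 1886 bases downstream, so that neither covers the outermost start of its gene. The motif stood in the windows of Atg5, Bnip3 and Atg7. The shorter letters ACGTG, the core of a hypoxia response element and contained in CACGTG, stood in the same 3 windows and in 19.6% of all. A longer form of the site, with CACGTG at its centre and further fixed letters on each side, was also searched. It stood in 0 of the 7 windows and in 0.326% of all. A site this rare is too seldom met for its absence from 7 windows to set them apart from all windows. The 30 bases around the match are given with CACGTG in capitals, for the pair of windows at the 5' end of the gene, Bnip3 (chr7:138909597-138909626, - strand, first base of the motif at -108 from the start) and Atg5 (chr10:44268313-44268342, + strand, at -14). A match is a description of the letters only.
Bnip3: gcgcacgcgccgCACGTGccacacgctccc
Atg5: cggagcgcttgcCACGTGgtcttggtgacg

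Levels between genes were compared in TPM, RSEM's abundance scaled by transcript length and library size. Sqstm1 was the most abundant of the 10, with 276 ± 45.2 TPM in Col3a1+/G182R and 286 ± 23.9 TPM in WT (SD, n = 3 and n = 4). Map1lc3b followed at 210 ± 13.9 and 198 ± 36.6 TPM, and Becn1 at 104 ± 6.21 and 91.9 ± 10.6 TPM, in the same order of genotypes. At the low end, Atg5 had 16.6 ± 2.23 TPM in Col3a1+/G182R and 12.4 ± 2.59 TPM in WT, and Atg7 had 11.6 ± 1.25 and 11.1 ± 1.71 TPM. The means stood in the same order in both genotypes: Sqstm1, Map1lc3b, Becn1, Bnip3l, Lamp2, Bnip3, Rb1cc1, Wipi2, Atg5, Atg7. In Col3a1+/G182R, the libraries of neighbours in this order overlapped for Becn1 with Bnip3l and for Bnip3l with Lamp2. In WT, neighbours overlapped from Becn1 down to Wipi2 and again between Atg5 and Atg7. Neighbours in this part are thus not separated beyond the spread between mice. Genes further apart could be: Becn1 had 83.45 to 107.2 TPM in WT, above the 26.8 to 60.9 TPM of Lamp2. Within each WT library, Becn1 also stood above Bnip3l.

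Between genotypes, 5 of the 10 were higher in every Col3a1+/G182R library than in every WT library in CPM, the count scaled to the library size after TMM, namely Bnip3, Lamp2, Rb1cc1, Bnip3l and Atg5. Wipi2 was lower in every Col3a1+/G182R library. Such a gap between genotypes was found in 10.1% of all genes tested for higher and 10.8% for lower values, 20.9% in either direction. The same 6 genes had an unadjusted p under 0.05 in edgeR's quasi-likelihood test, beside 20.4% of all genes tested (9.57% higher and 10.8% lower). None passed after Benjamini-Hochberg adjustment over all genes: edgeR called 0 of the 10 genes, and 6 genes of the 15688 (0.0382%). DESeq2 called 1 of the 10 (Bnip3) and 4.88% of all genes it adjusted, and limma-voom with library quality weights called 2 (Bnip3 and Lamp2) and 3.48% of all. edgeR without the count filter called 1 (Bnip3) and 1.28% of all. The plot of CPM by library shows the 10 genes side by side.

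**Figure D1:**
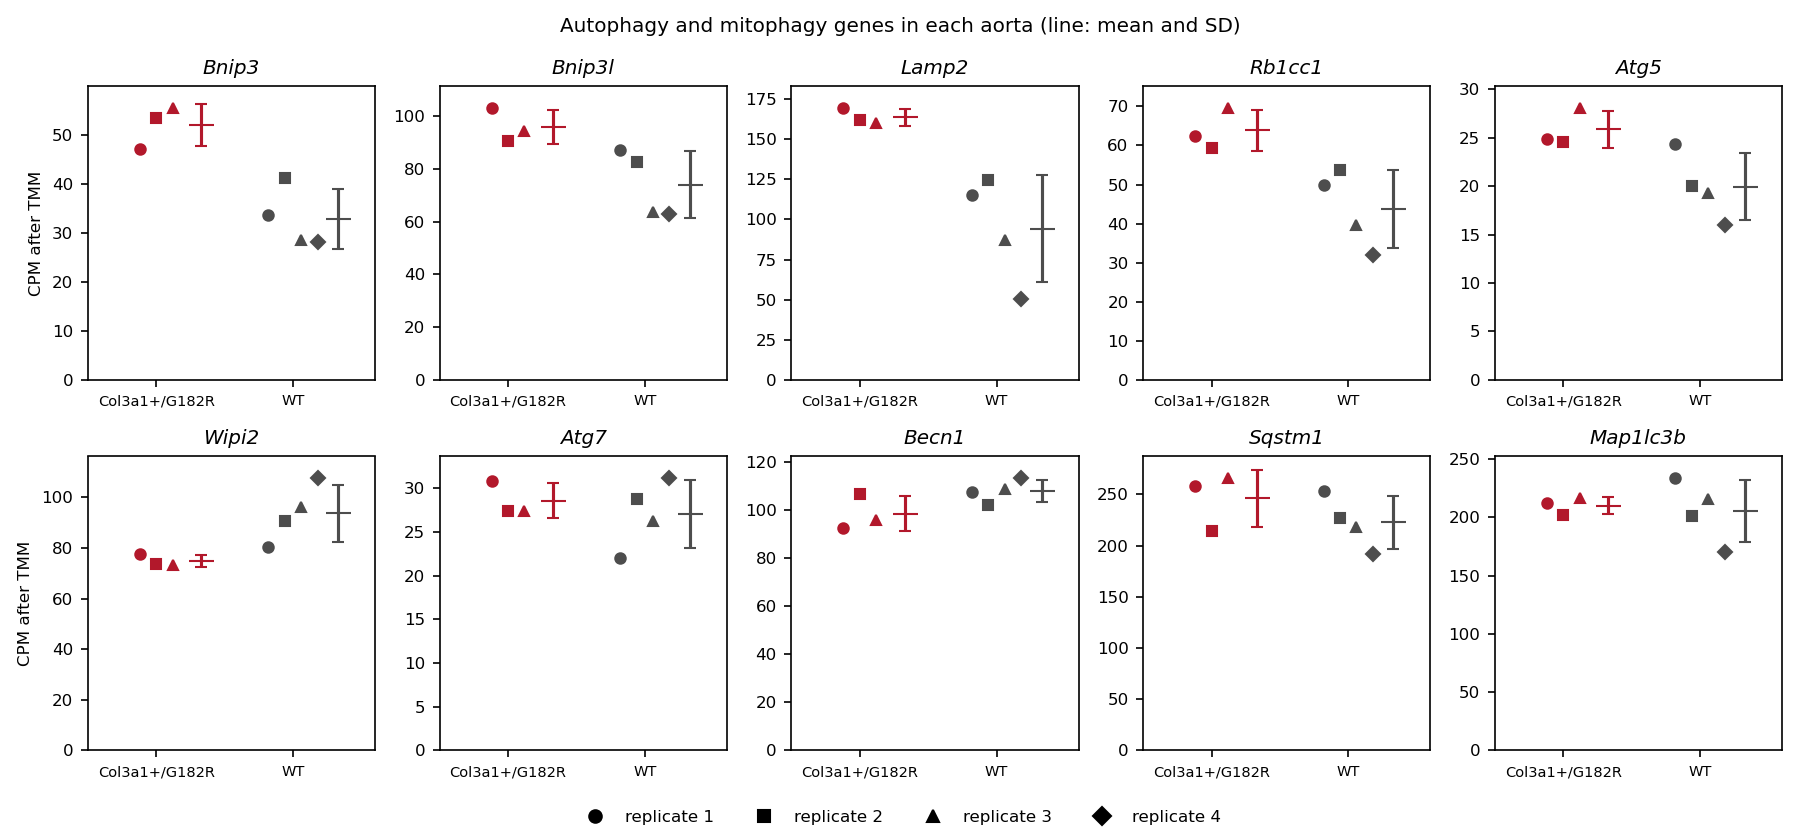
CPM of the 10 genes in each library, with Col3a1+/G182R left and WT right in each panel, each symbol being 1 mouse and the line and bars the mean and SD. In the first 6 panels the genotypes do not overlap, with Wipi2 the one that is lower in Col3a1+/G182R, and in the last 4 panels they overlap.

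Rb1cc1 (ENSMUSG00000025907, GRCm38 chromosome 1, 6206197 to 6276648, + strand) encodes the scaffold of the ULK kinase complex that starts autophagosome formation. It had 62.5, 59.4 and 69.7 CPM in Col3a1+/G182R, against 49.8, 53.8, 39.5 and 31.9 CPM in WT. WT replicates 1 and 2 lay close under the lowest knock-in library and WT replicate 4 lay far below. Its log2 fold change was 0.54 (SE 0.176, unadjusted p = 0.012, edgeR adjusted p = 0.171). Of the other 4 genes of its complex, the kinase gene Ulk2 averaged 73.7 ± 3.32 CPM in Col3a1+/G182R and 55.9 ± 11.8 CPM in WT (log2 fold change 0.40, adjusted p = 0.223), while Ulk1, Atg13 and Atg101 had log2 fold changes of -0.21, -0.00066 and -0.13.

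Becn1 (ENSMUSG00000035086, chromosome 11, 101285952 to 101302286, - strand), the regulatory subunit of the class III PI3-kinase that forms the lipid signal of the early membrane, differed little in counts. Its levels were 92.6, 106.6 and 96.1 CPM in Col3a1+/G182R, against 107.5, 102.2, 108.9 and 113.3 CPM in WT, with overlap through knock-in replicate 2. Its log2 fold change was -0.13 (SE 0.111, 95% interval -0.38 to 0.12, edgeR adjusted p = 0.502). Of the 11 genes listed around this kinase, 1 had an unadjusted p under 0.05 (9.09%, beside 20.4% of all genes tested). This was Bcl2, whose protein binds and restrains beclin at the endoplasmic reticulum. It averaged 52.2 ± 4.6 CPM in Col3a1+/G182R and 40.2 ± 4.24 CPM in WT, with no overlap (log2 fold change 0.38, adjusted p = 0.176).

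Wipi2 (ENSMUSG00000029578, chromosome 5, 142627698 to 142670588, + strand) encodes the protein that reads the lipid signal and recruits the conjugation machinery. It was the only one of the 10 that was lower without overlap, at 77.8, 73.6 and 73.3 CPM in Col3a1+/G182R and 80.2, 90.8, 96.2 and 107.5 CPM in WT. The gap to WT replicate 1 was narrow. Wipi2 had a log2 fold change of -0.32 (SE 0.127, unadjusted p = 0.03, edgeR adjusted p = 0.206). In TPM, which takes account of length, the genotypes did not overlap either, with 21.6 to 25.3 TPM in Col3a1+/G182R and 25.8 to 32.7 TPM in WT, again a narrow gap. With the effective length as an offset in edgeR, the log2 fold change of Wipi2 was -0.27 (SE 0.131, unadjusted p = 0.0664). The 3 relatives Wipi1, Wdr45 and Wdr45b had log2 fold changes of 0.16, -0.02 and 0.26, and none of the 8 genes listed with Wipi2 other than Wipi2 itself had an unadjusted p under 0.05.

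Atg5 (ENSMUSG00000038160, chromosome 10, 44268358 to 44364291, + strand) is joined to ATG12 to form the enzyme that places LC3 on lipid. It had 24.92, 24.58 and 28.1 CPM in Col3a1+/G182R, against 24.41, 19.99, 19.34 and 16.04 CPM in WT. The groups were separated only by the small step between knock-in replicate 2 and WT replicate 1, and in TPM they overlapped. Atg5 had a log2 fold change of 0.37 (SE 0.154, unadjusted p = 0.0371, edgeR adjusted p = 0.22). Atg7 (ENSMUSG00000030314, chromosome 6, 114643097 to 114860614, + strand), the activating enzyme of both conjugation reactions, had 30.9, 27.4 and 27.4 CPM in Col3a1+/G182R and 22.0, 28.8, 26.2 and 31.1 CPM in WT. Its groups overlapped fully, with a log2 fold change of 0.08 (SE 0.142, 95% interval -0.24 to 0.40).

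Of the 11 genes of the conjugation machinery, 3 had an unadjusted p under 0.05 (27.3%, beside 20.4% of all genes tested). Atg5, among these 3, belongs to the set itself, chosen with earlier results of these libraries known. Besides Atg5, the LC3-processing protease gene Atg4c was higher, at 11.4 ± 0.285 CPM in Col3a1+/G182R and 7.81 ± 1.48 CPM in WT (log2 fold change 0.55, edgeR adjusted p = 0.176). Atg16l2, a relative of the scaffold gene Atg16l1, was lower, at 25.5 ± 2.29 CPM in Col3a1+/G182R and 43.4 ± 16.4 CPM in WT (log2 fold change -0.76, adjusted p = 0.175). The WT values of Atg16l2 ran up to 66.5 CPM, in WT replicate 4, without which its log2 fold change was -0.49, and Atg16l1 itself had a log2 fold change of -0.01.

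Map1lc3b (ENSMUSG00000031812, chromosome 8, 121590361 to 121598760, + strand), which encodes the LC3 protein that coats the autophagosome, and Sqstm1 (ENSMUSG00000015837, chromosome 11, 50199366 to 50210827, - strand), the receptor that ties ubiquitin-tagged cargo to LC3, are the pair most often read as markers of autophagy. Map1lc3b had 212, 202 and 217 CPM in Col3a1+/G182R, against 233, 201, 216 and 170 CPM in WT. Its log2 fold change was 0.03 (SE 0.133), with a 95% interval of -0.26 to 0.33. Sqstm1 had 258, 214 and 266 CPM in Col3a1+/G182R, against 254, 227, 218 and 192 CPM in WT, again with overlap. Its log2 fold change was 0.14 (SE 0.138, 95% interval -0.16 to 0.45, edgeR adjusted p = 0.557). Among the 5 LC3 and GABARAP genes and among the 7 cargo receptor genes, 0 had an unadjusted p under 0.05 or an adjusted p under 0.05 in edgeR, and 0 were called by DESeq2. Map1lc3b lies inside the read-through gene model Gm20388 on the same strand, which held 4252 to 5782 counts in Col3a1+/G182R and 2793 to 4935 counts in WT, so reads of that locus were divided between the 2 entries by RSEM and the level of Map1lc3b is uncertain to that extent.

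Lamp2 (ENSMUSG00000016534, chromosome X, 38401357 to 38456454, - strand) encodes a main glycoprotein of the lysosomal membrane that autophagosome fusion and chaperone-mediated autophagy need. It had 170, 162 and 160 CPM in Col3a1+/G182R, against 115, 124, 86.9 and 50.7 CPM in WT. The knock-in libraries lay close together, and among the WT libraries replicate 4 was the lowest by far. Lamp2 had a log2 fold change of 0.79, a 1.73-fold higher level (SE 0.256, 95% interval 0.22 to 1.37, unadjusted p = 0.0115, edgeR adjusted p = 0.17). The log2 fold change was 0.58 (SE 0.135) without WT replicate 4 and 0.955 (SE 0.259) without WT replicate 2, the lowest and highest when 1 library was left out. TPM gave the same separation, at 82.4, 79.6 and 86.6 TPM in Col3a1+/G182R and 60.9, 57.4, 41.2 and 26.8 TPM in WT. With library quality weights in limma-voom the adjusted p was 0.0488, and over the alternatives for this gene it ran up to 0.428.

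Of the 15 genes of the lysosomal membrane and its proton pump, 5 had an unadjusted p under 0.05 (33.3%, beside 20.4% of all genes tested, and 3 of the 15 with the GC content offset), with a list median log2 fold change of 0.18 beside 0.01 for all genes tested. Lamp2, among these 5, belongs to the set itself, chosen with earlier results of these libraries known. It had the largest log2 fold change of the list, and its relative Lamp1 had 0.18 (SE 0.167). Of the V-ATPase, which acidifies the lysosome, the V1 sector subunit genes Atp6v1b2 and Atp6v1h were higher, at 60.0 ± 5.62 and 65.0 ± 4.31 CPM in Col3a1+/G182R against 48.5 ± 1.83 and 47.8 ± 10.3 CPM in WT (log2 fold changes 0.31 and 0.44, edgeR adjusted p = 0.188 and 0.206). Tmem175, a lysosomal ion channel, was lower, at 23.1 ± 1.55 CPM in Col3a1+/G182R and 31.3 ± 6.3 CPM in WT (log2 fold change -0.43, adjusted p = 0.201). The fifth, named after its value was seen, was Atp6v1a, with a log2 fold change of 0.58 (SE 0.247). The 15 genes of enzymes inside the lysosome had a median of -0.05, with 2 (13.3%) under 0.05 in opposite directions. These were the lipase gene Lipa (log2 fold change 0.31) and the protective protein gene Ctsa (-0.28). Of 13 genes of fusion with the lysosome, 1 (7.69%) had an unadjusted p under 0.05. This was the tethering subunit gene Vps16, at 34.7 ± 2.67 CPM in Col3a1+/G182R and 45.6 ± 9.74 CPM in WT.

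Bnip3 (ENSMUSG00000078566, chromosome 7, 138890836 to 138909519, - strand) encodes a mitophagy receptor whose gene is a known target of HIF1 and of FOXO3. It had the smallest p of the 10 genes. Its levels were 47.2, 53.4 and 55.5 CPM in Col3a1+/G182R, against 33.6, 41.3, 28.5 and 28.1 CPM in WT. Every knock-in library stood above WT replicate 2, the highest of the WT libraries. The log2 fold change was 0.66, a 1.58-fold higher level (SE 0.154, 95% interval 0.32 to 1.01, unadjusted p = 0.00169, edgeR adjusted p = 0.146). In TPM the values were 50.6, 58.2 and 69.9 in Col3a1+/G182R and 43.1, 40.5, 26.0 and 27.4 in WT. DESeq2 gave an adjusted p of 0.0106, limma-voom with quality weights 0.0397 and edgeR without the count filter 0.038, while over all alternatives for this gene the adjusted p ran up to 0.428, without Col3a1+/G182R replicate 2.

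Bnip3l (ENSMUSG00000022051, chromosome 14, 66985239 to 67008877, - strand) encodes NIX, the relative of BNIP3 that clears mitochondria from maturing red blood cells. It had 103, 90.4 and 94.1 CPM in Col3a1+/G182R, against 87.1, 82.4, 63.5 and 62.9 CPM in WT. The step between knock-in replicate 2 and WT replicate 1 was small. Bnip3l had a log2 fold change of 0.37 (SE 0.148, unadjusted p = 0.0308, edgeR adjusted p = 0.207). Markers of red blood cells summed to 229 to 664 CPM in Col3a1+/G182R and 153 to 402 CPM in WT, with 5 of 5 tested markers higher, 2 at an unadjusted p under 0.05 and no marker at 0 in all libraries, and their part in the level of Bnip3l was not tested. The pseudogene Bnip3l-ps held 56.7 to 93.3 counts in Col3a1+/G182R and 19.4 to 65.2 counts in WT, a small number beside the 930 to 2296 counts of Bnip3l over all libraries.

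The mitophagy list held 10 genes, of which 4 had an unadjusted p under 0.05 (40.0%, beside 20.4% of all genes tested), all 4 higher, while over the list 5 genes were higher and 5 lower. All 4 encode proteins of the mitochondrial outer membrane that bind LC3 or its relatives: Bnip3, Bnip3l, Fundc1 and Bcl2l13. Of these, Bnip3 and Bnip3l belong to the set itself, chosen with earlier results of these libraries known. Fundc1 averaged 20.9 ± 1.73 CPM in Col3a1+/G182R and 14.9 ± 3.16 CPM in WT, and Bcl2l13 averaged 38.9 ± 3.39 and 32.1 ± 1.14 CPM in the same order, both with no overlap (log2 fold changes 0.49 and 0.27, edgeR adjusted p = 0.19 and 0.215). Fkbp8, another receptor of that membrane, had a log2 fold change of -0.19 (SE 0.12). Of the ubiquitin route, Pink1, the kinase that senses damaged mitochondria, had 0.14 (SE 0.139), and the opposing deubiquitinase gene Usp30 had -0.33 (SE 0.158). The median of the list was 0.05. After an offset for GC content, which is described below, Bnip3 and Bcl2l13 stayed under an unadjusted 0.05. These were 2 of the 10 genes of the list, beside 17.9% of all genes tested. Fundc1 and Bnip3l had unadjusted p of 0.168 and 0.287 in edgeR with this offset.

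Over all 12 role lists, which held 124 genes with the 10 members included, 25 genes had an unadjusted p under 0.05, 19 higher and 6 lower, or 20.2% beside the 20.4% of all genes tested. Without the 10 genes it was 19 of 114, or 16.7%. The median log2 fold change was 0.05 over the 124 genes and 0.01 over all genes tested. edgeR called 0 of the 124 after adjustment and DESeq2 called 3, Bnip3, Fnip1 and Foxo3. Since the 10 genes were chosen with earlier results of these libraries known, their own share of 6 in 10 is a description.

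**Figure D2:**
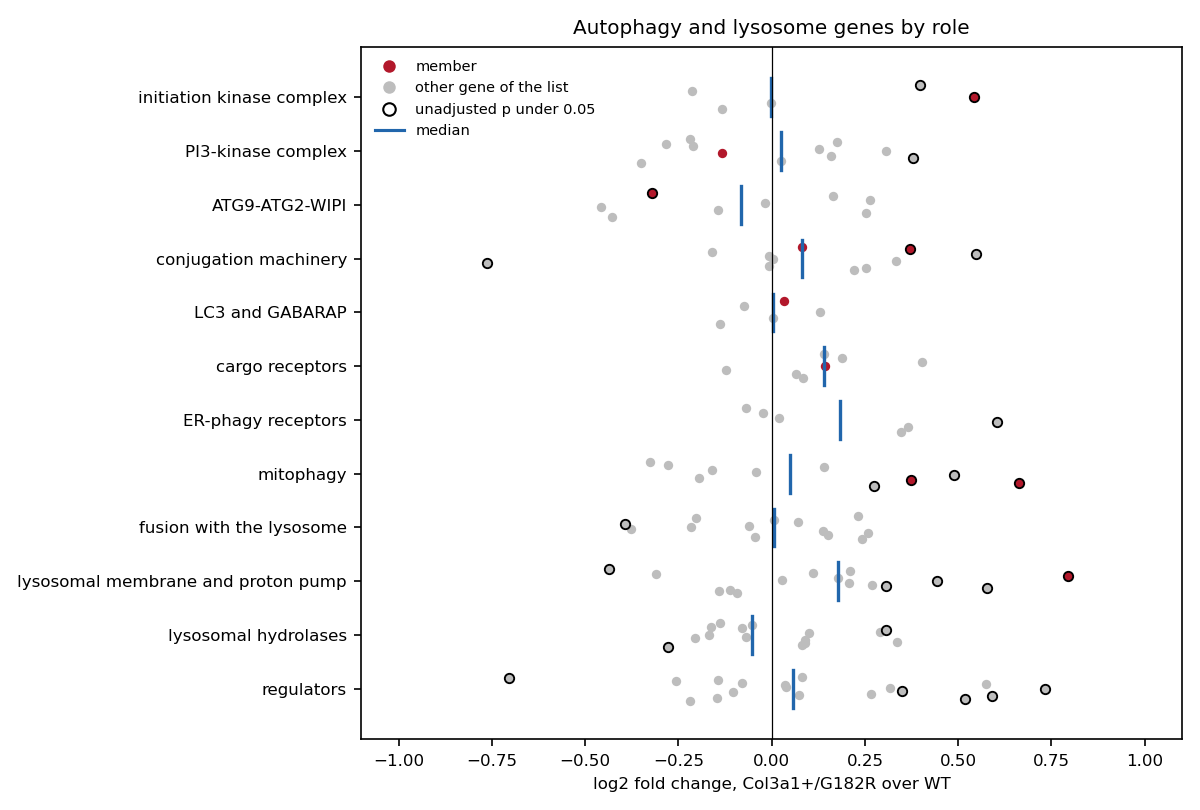
Log2 fold change (x axis) of the 124 genes by role (y axis), red points being the 10 members, grey points the other genes, black rims an unadjusted p under 0.05 and blue lines the median of each list. The lists lie around 0, with medians between -0.08 and 0.18, and the rimmed members Lamp2, Bnip3 and Rb1cc1 stand at the right edge of their lists.

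Among 18 regulators, 5 had an unadjusted p under 0.05 (27.8%, beside 20.4% of all genes tested). With the GC content offset it was 3 of the 18, beside 17.9% of all genes tested. Foxo3, a transcription factor of atrophy and autophagy genes, Bnip3 among them, had 75.1, 77.0 and 114.9 CPM in Col3a1+/G182R, against 55.7, 62.1, 60.0 and 58.7 CPM in WT. Knock-in replicate 3 stood well above the other two, and without it the log2 fold change was 0.36. With all libraries it was 0.59 (SE 0.159, edgeR adjusted p = 0.158; 0.0342 in DESeq2 and up to 0.42 over the alternatives). Fnip1, a partner of folliculin at the lysosome, averaged 42.5 ± 3.42 CPM in Col3a1+/G182R and 29.7 ± 4.6 CPM in WT (log2 fold change 0.52, adjusted p = 0.158; 0.22 with the GC content offset, unadjusted p = 0.0613). Both catalytic subunit genes of AMPK, the kinase of low energy that activates ULK1, were higher, Prkaa2 with a log2 fold change of 0.73 (SE 0.242, adjusted p = 0.174) and Prkaa1, named after its value was seen, with 0.35 (SE 0.15). Tsc2, a restraint of mTOR and likewise named after its value was seen, was lower, with -0.70 (SE 0.233). TFEB itself, the main transcriptional regulator of lysosomal genes, had a log2 fold change of -0.26 (SE 0.155), its relative Tfe3 had -0.08 (SE 0.128) and Mtor had -0.10 (SE 0.151). The 6 receptors that take the endoplasmic reticulum into autophagosomes had 1 gene (16.7%) under 0.05. This was Retreg1, at 3.14 ± 0.368 CPM in Col3a1+/G182R and 2.06 ± 0.491 CPM in WT, with overlap.

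Since Bnip3 is a target of HIF1, 20 HIF1 target genes, Bnip3 included, were read beside it. Of these, 4 had an unadjusted p under 0.05, with a median log2 fold change of 0.05. Adm, the vasodilator peptide adrenomedullin, was higher at 14.1, 11.5 and 11.5 CPM in Col3a1+/G182R, against 8.66, 6.27, 6.53 and 4.67 CPM in WT (log2 fold change 0.91, SE 0.218, edgeR adjusted p = 0.146; 0.00991 in DESeq2 and up to 0.428 over the alternatives). Ldha, which reduces pyruvate to lactate, averaged 287 ± 35.4 CPM in Col3a1+/G182R and 235 ± 6.45 CPM in WT (log2 fold change 0.29). P4ha2, a subunit of the enzyme that hydroxylates prolines of collagen, was lower at 54.7 ± 2.95 CPM in Col3a1+/G182R and 71.4 ± 2.15 CPM in WT (log2 fold change -0.38, adjusted p = 0.158). Vegfa, Slc2a1 and Car9, much used readouts of hypoxia, had log2 fold changes of -0.17, -0.15 and -0.35, with unadjusted p of 0.587, 0.359 and 0.38. Of the 4 genes under 0.05, 3 were higher, Bnip3 itself among them, and 1 was lower. Over all genes tested, 20.4% were under 0.05 (9.57% higher and 10.8% lower). The study's own gene set enrichment on its aortic RNA sequencing named Hypoxia among the enriched sets. The part of HIF1 in the level of Bnip3 was not tested.

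The libraries differed also in which transcripts RSEM assigned to a gene, which bears on TPM but not on the summed count. RSEM gives each gene a length in each library, the mean of its transcript lengths weighted by their estimated abundance, and this length varied between libraries for 9 of the 10 genes (all but Atg5). In Bnip3l it was 1597, 1563 and 1972 bases in Col3a1+/G182R, against 1585, 2301, 3009 and 3122 bases in WT. The 2 coding transcripts of Bnip3l are 3238 and 3259 bases long, while its 5 non-coding transcripts have 354 to 789 bases. WT replicates 3 and 4 were thus assigned mostly to the long coding forms, and all knock-in libraries and WT replicates 1 and 2 also to short forms, WT replicate 2 less so than the others. Accordingly the difference of Bnip3l was larger in TPM, with 97.9, 85.5 and 77.3 TPM in Col3a1+/G182R and 87.4, 50.6, 28.8 and 29.6 TPM in WT, and the genotypes overlapped through WT replicate 1. With the effective length as an offset in edgeR, the log2 fold change of Bnip3l was 0.82 (SE 0.335, adjusted p = 0.213).

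The weighted length did not overlap between genotypes in 3 of the 10 genes, beside 16.7% of the 12450 tested genes whose length varies. Becn1 was assigned shorter transcripts in the knock-in, 1465 to 1482 bases in Col3a1+/G182R against 1594 to 2038 bases in WT, and its log2 fold change was 0.14 with the length offset, the opposite sign of that from counts. Sqstm1 was assigned longer ones, 1381 to 1426 bases in Col3a1+/G182R against 1106 to 1284 bases in WT, and its log2 fold change likewise turned, to -0.09. In Rb1cc1, whose full-length transcript has 7607 bases, the weighted length was 2532 to 2639 bases in Col3a1+/G182R and 1756 to 2372 bases in WT, and the log2 fold change was 0.30 (SE 0.139) with the offset against 0.54 without. These lengths are estimates from short paired reads over 17 annotated transcripts of Becn1, 7 of Sqstm1 and 16 of Rb1cc1, many of them partial. Bnip3 and Lamp2 kept their difference with the length offset, at 0.76 (SE 0.195) and 0.79 (SE 0.247). TPM did not overlap between genotypes in 3 of the 10 genes, Wipi2, Lamp2 and Bnip3, beside 18.9% of all genes tested.

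**Figure D3:**
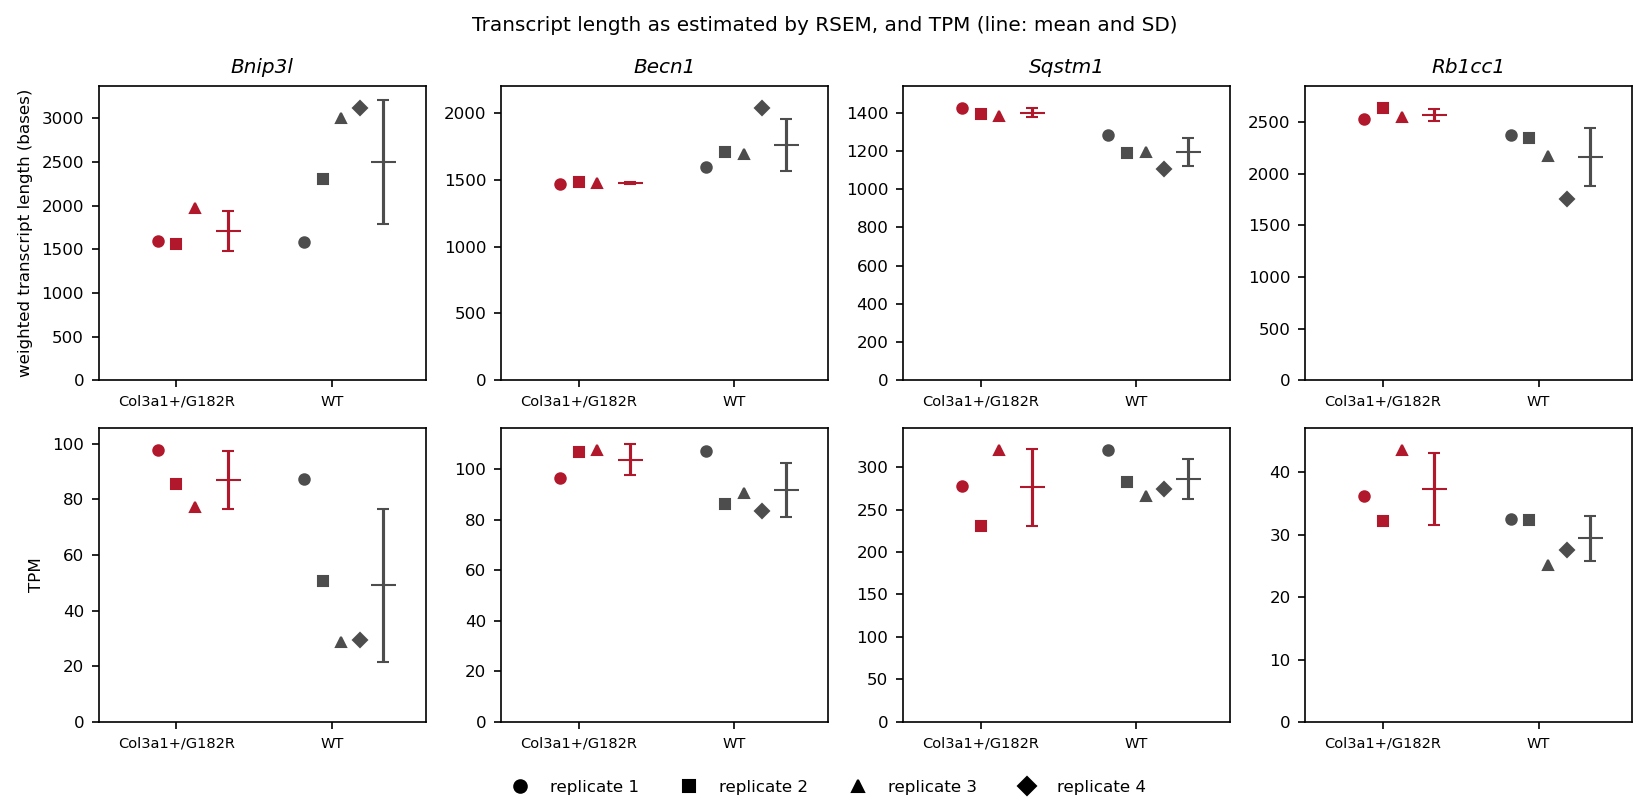
Weighted transcript length in bases (upper panels) and TPM (lower panels) of Bnip3l, Becn1, Sqstm1 and Rb1cc1, with Col3a1+/G182R left and WT right, each symbol 1 mouse, line and bars the mean and SD. The length of Bnip3l stretches over 1585 to 3122 bases among the WT libraries, while the lengths of Becn1, Sqstm1 and Rb1cc1 do not overlap between genotypes.

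Over all genes, the difference between genotypes went with the GC content of the transcripts, with a trend that differed between the WT libraries. With the genes divided into 10 bins of like size, the median log2 fold change was 0.29 in the bin of lowest GC content (31.0 to 41.6%) and -0.18 in the bin of highest (58.0 to 78.3%). The 5 higher genes of the set, Lamp2, Rb1cc1, Bnip3, Bnip3l and Atg5, have 38.7 to 44.6% GC in their longest transcript, and the other 5 have 45.0 to 55.2%, with a median of 49.8% over all genes. WT replicate 4 had the steepest trend, with a median deviation of -0.40 on the log2 scale from the mean of the libraries in the lowest bin and 0.28 in the highest. It was also the library with the lowest total count, and it had the lowest CPM of the 7 libraries for Lamp2, Bnip3, Rb1cc1, Bnip3l and Atg5. In the lowest bin, WT replicates 1, 2 and 3 stood at -0.06, 0.13 and -0.16. The knock-in libraries stood at 0.16, 0.20 and 0.19 there, so WT replicate 2 leaned to their side.

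With an offset for this trend, chosen after the data were seen, 4 of the 10 genes had an unadjusted p under 0.05 in edgeR, beside 17.9% of all genes tested. Of the 6 genes under 0.05 without the offset, 3 stayed so, and Becn1 was added. The 4 were Bnip3 (log2 fold change 0.41, SE 0.108, adjusted p = 0.178), Lamp2 (0.53, SE 0.18, adjusted p = 0.214), Rb1cc1 (0.25, SE 0.112, adjusted p = 0.275) and Becn1 (-0.29, SE 0.121, adjusted p = 0.26). Bnip3l was at 0.13 (SE 0.118) and Atg5 at 0.22 (SE 0.129) with this offset, and Wipi2 at -0.26 (SE 0.113, unadjusted p = 0.05).

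**Figure D4:**
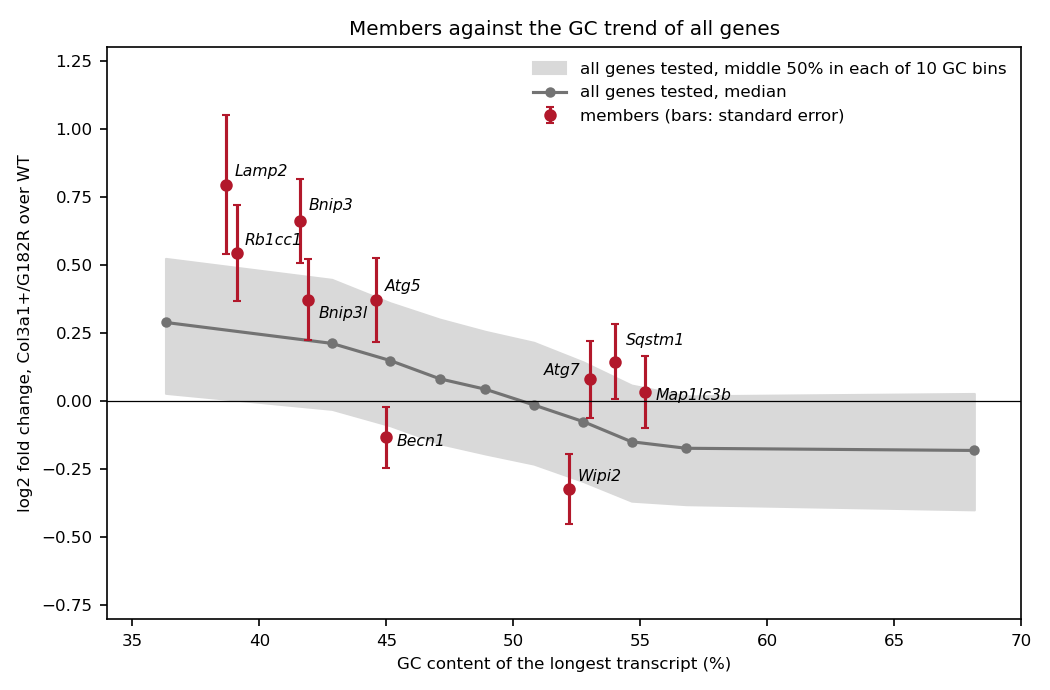
Log2 fold change against GC content of the longest transcript, the grey line and band being the median and middle 50% of all genes tested in each of 10 GC bins, and red points the 10 genes with their standard errors. The grey line falls through 0 near the median GC content of 49.8%, Lamp2, Bnip3 and Sqstm1 lie above the band, Rb1cc1 and Atg5 lie close to its upper edge, and Becn1 and Wipi2 lie below it.

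**Figure D5:**
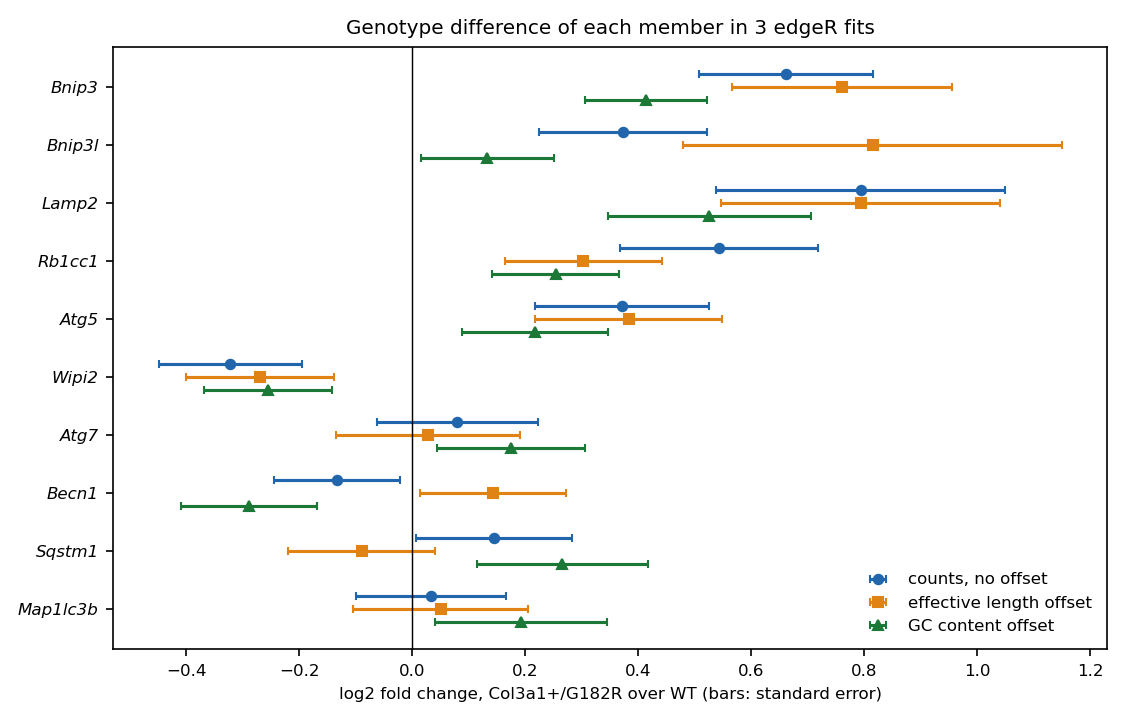
Log2 fold change, Col3a1+/G182R over WT (x axis), of each of the 10 genes in 3 edgeR fits, from counts (circles), with the effective length as an offset (squares) and with the GC content offset (triangles), bars being standard errors. Bnip3, Lamp2, Rb1cc1 and Atg5 lie right of 0 and Wipi2 left of it in all 3 fits, while Becn1 and Sqstm1 change side with the length offset.

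Leaving out 1 library at a time, Bnip3, Lamp2 and Rb1cc1 stayed at an unadjusted p under 0.05 in each of the 7 fits, and 0 of the 10 genes passed adjustment in any of them. The count of 6 genes under an unadjusted 0.05 dropped to 3 without WT replicate 3 and also without Col3a1+/G182R replicate 3. Without WT replicate 4, it was 4 genes: Rb1cc1, Wipi2, Lamp2 and Bnip3.

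The genes whose CPM went most like those of the leading 2 members over the 7 libraries were sought among 9632 genes of at least 10 CPM, by the root mean square difference of log2 CPM centred on each gene's mean. For Bnip3 they were Hsdl2 (0.07), Rif1 (0.07), Aldh6a1 (0.08), Fpgt (0.08) and Gm14391 (0.08), beside a median difference of 0.41 over all genes compared. For Lamp2 they were Nbeal1 (0.07), Ctnna3 (0.08), Ddx3x (0.09), Ubxn2a (0.09) and Sept10 (0.09), beside a median of 0.59. Of these 10 genes, Hsdl2 and Aldh6a1 encode enzymes of peroxisomes and mitochondria, and the others were not sorted by function. All 10 genes have GC contents of 37.2 to 46.6%, below the median of all genes, so that likeness and GC content cannot be told apart here.

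The tissue carried the markers of the aortic wall, with the 6 smooth muscle markers summing to 31600 to 36800 CPM in Col3a1+/G182R and 26200 to 39600 CPM in WT. The 6 markers of adventitial fibroblasts summed to 2150 to 2430 CPM in Col3a1+/G182R and 1350 to 2680 CPM in WT, with 6 of 6 higher by the fit and 3 at an unadjusted p under 0.05. The 8 macrophage markers summed to 175 to 444 CPM in Col3a1+/G182R and 135 to 206 CPM in WT, with 8 of 8 higher and 6 under 0.05, and no marker of either list was at 0 in all libraries. Cardiac muscle markers, low throughout, did not overlap, at 11.4 to 14.1 CPM in Col3a1+/G182R and 15.5 to 64.6 CPM in WT. Neither did skeletal muscle markers, at 4.99 to 7.41 and 8.4 to 9.54 CPM in the same order, with Myh4 at 0. Macrophages are rich in lysosomes and express Lamp2, and the part of these cells in the levels above was not tested. In RNA of undivided aortic tissue, more cells of a type and more RNA per cell cannot be told apart.

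Col3a1 itself does not tell the genotypes apart, since the knock-in changes 1 base of the coding part of an expressed allele. It had 4107, 4216 and 5208 CPM in Col3a1+/G182R, against 5483, 3965, 3578 and 2831 CPM in WT (log2 fold change 0.19, SE 0.217, edgeR adjusted p = 0.633). Total counts were 18820015 to 23953746 in Col3a1+/G182R and 13693861 to 21634680 in WT (exact permutation test over 35 splits, two-sided p = 0.114, adjusted over 3 measures 0.171). Mitochondrial mRNAs took 6.04 to 8.36% of counts in Col3a1+/G182R and 5.29 to 8.55% in WT (exact p = 0.743). The gap between transcript length and effective length, which grows with the sequenced fragments, was 121 to 130.6 bases in Col3a1+/G182R and 113.7 to 120 bases in WT with no overlap (exact p = 0.0571, the smallest this test can give here, adjusted p = 0.171), and its part in the results was not tested.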

How the data were processed

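Thoracic aorta mRNA of 3 Col3a1+/G182R and 4 WT mice was measured with a stranded kit and paired reads. Per the submitters' processing notes, the authors made the deposited expected counts with RSEM 1.3.1 after STAR 2.7.6a on GRCm38; the study's methods name another counting tool, and the annotation and the use of strand in counting are not given in the sources used here. TPM and the gene length and effective length, in bases, were deposited in the same files and are RSEM estimates; TPM entered no test. Reads shared between genes are split, so that 7 of the 10 genes had counts that were not whole (beyond 0.004). Symbols and places came from GENCODE M21 (55141 of 55487 identifiers found), promoters from RefSeq.

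Counts were rounded, filtered with filterByExpr (minimum count 10), scaled with TMM and compared with edgeR 4.0.16 (quasi-likelihood F test, two-sided, genotype the only term, R 4.3.3). Adjusted p-values are Benjamini-Hochberg over all 15688 genes, with a threshold of 0.05. Nothing says that the mice shared litters or days, and replicates are separate mice. Alternatives were DESeq2 1.42.0, limma-voom (limma 3.58.1, also with quality weights), RLE factors, 2 other count filters, an effective length offset, a replicate block, leaving out each library, and, chosen after seeing the data, a GC content offset (loess per library of log2 CPM on GC content).

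The tools were tested on counts simulated from the means, dispersions and library sizes of these 15688 genes. The share found by edgeR was 5.33% at a 1.5-fold change, 42.7% at 2-fold and 82% at 4-fold, and 9 of its 86 calls were false. DESeq2 found 26.7%, 58.7% and 84% at the same sizes, and 22 of its 128 calls were false. The simulated counts held no GC trend, unlike the libraries, so these figures hold for such counts only.

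The members and lists were chosen with earlier results of these data known. All 10 members are named, and of each other list up to 3 genes of smallest p, here only those with an unadjusted p under 0.05; for the 2 members of smallest p, the 5 genes of most like CPM.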

Additional observations from a re-analysis of the deposited data

Results flagged for a closer look

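Over the 10 genes, the other named genes and the marker sums, 67 sets of 4 WT values were examined for a library far from the other 3 by Dixon's 95% critical value, and 0 passed it.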

How the results depend on the processing

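The genes called over the whole table numbered 6 with edgeR and moved with nearly every choice: 706 with DESeq2, 11 with limma-voom, 546 with library quality weights, 353 with no filter on low counts, 0 with at least 10 counts in every library, 14 with the effective length offset, 46 with the replicate block, 1 with the GC content offset, and 0 to 183 when 1 library was left out. Of the 10 genes, 1 was called with DESeq2, 2 with library quality weights and 1 with no filter, and 0 in each leave-one-out fit; those under an unadjusted 0.05 numbered 3 to 6 in the leave-one-out fits. Of the 124 genes of the role lists, 3 were called with DESeq2, 2 with library quality weights and 1 with no filter, and 0 when 1 library was left out. The sign turned for Becn1 (0.143) and Sqstm1 (-0.0896) with the effective length offset, for Map1lc3b with quality weights (-0.0246), the replicate block (-0.0435) and without WT replicate 4 (-0.0554, with 0.102 the highest when 1 library was left out), and for Atg7 without WT replicate 1 (-0.00857, with 0.145 the highest). The offsets change the counts' scale by construction; for the other settings the cause was not tested. Of 160 values of the 10 genes under these settings, 150 kept their direction and their side of the threshold, 4 newly passed it and 6 turned sign. Of 384 values of the other named genes, 374 kept both and 10 newly passed. Libraries of both genotypes that share a number did not deviate together (correlations -0.0469, 0.0153 and 0.0777); with the replicate block, where WT replicate 4 has no partner, 0 of the 10 genes were called. In simulated counts without a GC trend, edgeR recovered 5.33% of 1.5-fold changes.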

Other observations

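Among genes of the mitochondrion itself, 26 nuclear genes of the respiratory chain had a median log2 fold change of 0.17, with 21 higher and 5 lower and 4 at an unadjusted p under 0.05 (15.4%, beside 20.4% of all genes tested), all 4 higher. With the GC content offset, 7 of the 26 were under 0.05, beside 17.9% of all genes tested. Ndufs1, a core subunit of complex I, had 98.2, 124.6 and 142.3 CPM in Col3a1+/G182R, against 83.2, 91.4, 74.3 and 87.6 CPM in WT (log2 fold change 0.53, SE 0.147, edgeR adjusted p = 0.158). Uqcrc2 of complex III averaged 189 ± 26.7 CPM in Col3a1+/G182R and 137 ± 12.3 CPM in WT, and Sdha of complex II averaged 325 ± 56.8 and 247 ± 22.3 CPM in the same order, the first without overlap (log2 fold changes 0.46 and 0.39). In all 3 genes Col3a1+/G182R replicate 3 was the highest library and replicate 1 the lowest of the knock-in libraries. Markers of white and brown adipocytes summed to 599, 1030 and 1010 CPM in Col3a1+/G182R and 571, 579, 738 and 987 CPM in WT, with 6 of 7 higher, 1 at an unadjusted p under 0.05 and no marker at 0 in all libraries, and their part in these levels was not tested. Of the 13 genes of mitochondrial DNA, 1 (7.69%) had an unadjusted p under 0.05. This was mt-Atp8, at 1526, 1890 and 655 CPM in Col3a1+/G182R and 988, 871, 696 and 773 CPM in WT. The gene overlaps mt-Atp6, and its highest and lowest libraries were both knock-in. Of 14 genes of the outer membrane and of fission and fusion, 1 (7.14%) was under 0.05. This was the fusion gene Mfn1, at 42.3 ± 2.34 CPM in Col3a1+/G182R and 54.4 ± 10.5 CPM in WT. edgeR called 0 genes of these mitochondrial lists after adjustment, and DESeq2 called Ndufs1 and Uqcrc2 among the named ones.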
